A study of Homo sapiens with 32 samples.

Results

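S100 proteins are small calcium-binding proteins, most of which are encoded side by side in 1 stretch of chromosome 1. The 10 genes described here are S100A2, S100A4, S100A6, S100A7, S100A8, S100A9, S100A10, S100A11, S100A14 and S100A16. They were taken as the rows of the counts table whose Ensembl identifier carries one of these symbols in GENCODE release 44. This gave 10 of the 17788 genes in the table, and all 10 passed the low-count filter that left 14865 genes for testing. RNA sequencing (RNA-seq) was done on 32 libraries of MCF10A, an immortalized, non-tumorigenic human mammary epithelial cell line. Clones 27 and 2 carried wild-type JUNB (WT). Clones 1 and 65, called mut, were labelled as JUNB knock-out, are each derived from a single cell edited with CRISPR/Cas9, and carry an extended deletion that leaves a low level of a smaller JUNB polypeptide. JUNB is a subunit of the transcription factor AP-1. Cells received 5 ng/ml of the cytokine TGFβ1 for 6, 24 or 72 h, or solvent (bovine serum albumin in buffered saline, labelled as 0 h), in medium with horse serum, epidermal growth factor, hydrocortisone, cholera toxin and insulin. Solvent was given for 72 h, and all samples were harvested at the same time after seeding. Each clone was treated in 2 replications, which gave 8 groups of 4 libraries. The libraries of 1 clone and 1 replication are called a series and written as clone and replication, such as 27-2.

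S100 proteins work mostly as dimers that change shape when they bind calcium and then dock onto partner proteins. S100A8 and S100A9 together form calprotectin, a metal-chelating antimicrobial complex that is abundant in neutrophils and is also made by stressed or differentiating epithelia. S100A10 pairs with annexin A2 at the plasma membrane, S100A11 binds annexin A1, and S100A4 binds non-muscle myosin and is often used as a marker of mesenchymal cells. S100A7 (psoriasin) is an epithelial antimicrobial protein, S100A2 is found in basal epithelial cells, and S100A14 and S100A16 are found in many epithelia.

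All 10 genes lie on chromosome 1 (GRCh38, GENCODE 44) between bases 151982915 and 153616986, a span of 1.63 megabases, and none shares exon bases with another gene of the table. S100A10 (151982915 to 151993859, minus strand) and S100A11 (152032506 to 152047907, minus strand) lie at one end. The late epidermal genes follow, and then come S100A9 (153357854 to 153361023, plus strand) and S100A8 (153390032 to 153391073, minus strand), which are 29.0 kb apart. S100A7 lies at 153457744 to 153460651, S100A6 at 153534599 to 153536244, S100A4 at 153543613 to 153550136, S100A2 at 153561108 to 153567890, S100A16 at 153606886 to 153613145 and S100A14 at 153614255 to 153616986, all on the minus strand.

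The 250 bases before the RefSeq start site (GRCh38.p14) are shown for the 3 genes of the set with the lowest fitted values in WT cells at 72 h (S100A8, S100A9 and S100A7). They are also shown for S100A10, whose rise at 24 h differed between the genotypes in the main fit, and for S100A2, the 1 member with an AP-1 match. 4 motifs were searched on both strands of such a window: CACCTG (bound by SNAIL and ZEB factors), CAGAC (SMAD), TGANTCA (AP-1) and TTGCNNAA (C/EBP). The motifs do not share letters at any of these places, and the capitals mark the matches. S100A8 lies on the minus strand at chr1:153391074-153391323, S100A9 on the plus strand at chr1:153357604-153357853, S100A7 on the minus strand at chr1:153460652-153460901, S100A10 on the minus strand at chr1:151993860-151994109 and S100A2 on the minus strand at chr1:153565845-153566094. RefSeq start sites can differ from the outermost GENCODE start, which they match in 4 of the 10 genes (S100A7, S100A8, S100A9 and S100A10). For S100A2 the window belongs to 1 of 2 listed start sites and lies inside the gene span given above, and for S100A8 it belongs to 1 of 3.
S100A8: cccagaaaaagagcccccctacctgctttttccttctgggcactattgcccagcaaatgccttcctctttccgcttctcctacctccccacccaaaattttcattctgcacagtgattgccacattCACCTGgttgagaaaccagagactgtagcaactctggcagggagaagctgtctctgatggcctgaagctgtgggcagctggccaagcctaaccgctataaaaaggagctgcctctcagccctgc
S100A9: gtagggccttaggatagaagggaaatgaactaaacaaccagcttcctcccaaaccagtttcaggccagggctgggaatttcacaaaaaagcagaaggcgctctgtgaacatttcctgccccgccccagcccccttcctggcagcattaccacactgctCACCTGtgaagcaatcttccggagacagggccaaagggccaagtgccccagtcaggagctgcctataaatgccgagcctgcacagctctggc
S100A7: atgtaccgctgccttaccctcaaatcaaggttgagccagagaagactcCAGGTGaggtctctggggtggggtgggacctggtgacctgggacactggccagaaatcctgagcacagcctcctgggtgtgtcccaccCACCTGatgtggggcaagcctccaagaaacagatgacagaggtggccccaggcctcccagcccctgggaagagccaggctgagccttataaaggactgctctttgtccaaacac
S100A10: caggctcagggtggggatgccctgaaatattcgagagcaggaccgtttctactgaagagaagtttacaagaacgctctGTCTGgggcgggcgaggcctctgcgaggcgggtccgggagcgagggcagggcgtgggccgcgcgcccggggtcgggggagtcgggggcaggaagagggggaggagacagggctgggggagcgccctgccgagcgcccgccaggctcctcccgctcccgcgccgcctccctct
S100A2: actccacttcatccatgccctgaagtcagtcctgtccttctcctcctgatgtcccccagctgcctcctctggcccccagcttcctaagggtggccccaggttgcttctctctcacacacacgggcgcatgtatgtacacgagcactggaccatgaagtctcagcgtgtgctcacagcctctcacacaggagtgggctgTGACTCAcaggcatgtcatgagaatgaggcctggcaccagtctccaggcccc
CACCTG or its complement stood in 6 of the 10 windows (S100A4, S100A7, S100A8, S100A9, S100A14 and S100A16), against 17.5% of the 35116 RefSeq promoter windows. In S100A8 the match began 124 bases before the start site, and in S100A9 it began 92 bases before it. CAGAC stood in 4 windows (S100A4, S100A10, S100A11 and S100A16), against 38.0% of all. TGANTCA stood in 1 window, that of S100A2, 52 bases before the RefSeq start used here, against 6.57% of all. TTGCNNAA stood in 1 window, that of S100A11, against 9.05% of all. A match describes these letters and not a bound site.

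Levels are given as CPM (a gene's counts for each 1000000 counts of the library). Library totals lay between 39702412 and 54651906 counts, so that 3 counts, taken as the floor, correspond to 0.0549 to 0.0756 CPM. All 10 listed basal epithelial markers were in the table, with KRT5 at 3260 to 8160 CPM over the 32 libraries and TP63 at 64.7 to 152 CPM. EPCAM was the lowest at 9.23 to 82.7 CPM, and KRT14 had 181 to 2190 CPM. In WT cells at 72 h, 3 of the 10 were higher and 3 lower than in solvent (limma-voom, adjusted p under 0.05), beside 52.2% of all genes called. Of 8 myeloid markers, 6 were in the table. PTPRC (at most 0.0498 CPM), CSF3R (at most 0.187 CPM) and LYZ (at most 0.115 CPM) were at or near 0. CD14 had 2.29 to 28.1 CPM, and the summed level of the 6 markers was 16.6 to 23.6 CPM in WT solvent and 4.66 to 6.76 CPM in WT cells at 72 h. In mut cells it was 23.8 to 30.0 CPM in solvent and from 8.56 CPM up at 72 h, with every library below 23.8. The sum thus fell with TGFβ1, as S100A8 and S100A9 did. CD14 (median 10.0 CPM over the 32 libraries) and MPO (median 1.89 CPM) had the highest medians of the 6 markers. Over the 32 libraries MPO had 0.378 to 5.9 CPM and ITGAM had 0.0466 to 0.719 CPM. All 32 libraries came from clones of the MCF10A line, and which of its cells held these transcripts was not tested. JUNB itself had 89.7 to 117 CPM in WT solvent and 69.2 to 172 CPM in mut solvent (log2 fold change 0.10 ± 0.34 (SE), adjusted p = 0.885). Counts over the whole gene include reads outside the deletion, so this level does not test the edit. In bulk RNA, fewer cells with a transcript and less transcript per cell cannot be told apart.

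Per kilobase of merged exons, the members covered more than 2 orders of magnitude in WT solvent. S100A2 had the highest mean at 2182 ± 429 CPM per kb (SD, n = 4), followed by S100A6 at 1958 ± 268, and the ranges of these neighbours overlapped. S100A11 followed at 1032 ± 35.8 CPM per kb, apart from both. S100A10 (749 ± 62.2), S100A14 (723 ± 110.4), S100A16 (628 ± 25.2) and S100A9 (504 ± 258 CPM per kb) came next, each overlapping its neighbour in the order. S100A4 had 239 ± 69.3 CPM per kb, S100A8 had 117 ± 63.3 and S100A7 had 7.30 ± 6.59. At 72 h in WT cells the order of the first 4 was the same, whereas S100A9 was at 39.6 ± 17.8 and S100A8 at 8.92 ± 5.89 CPM per kb. The summed CPM of the 10 genes was 9315 ± 864 in WT solvent and 7813 ± 621 in WT cells at 72 h. In mut cells the sums were 8231 ± 468 and 8199 ± 1090 (SD, n = 4). The ranges of solvent and 72 h overlapped in both genotypes.

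**Figure D1:**
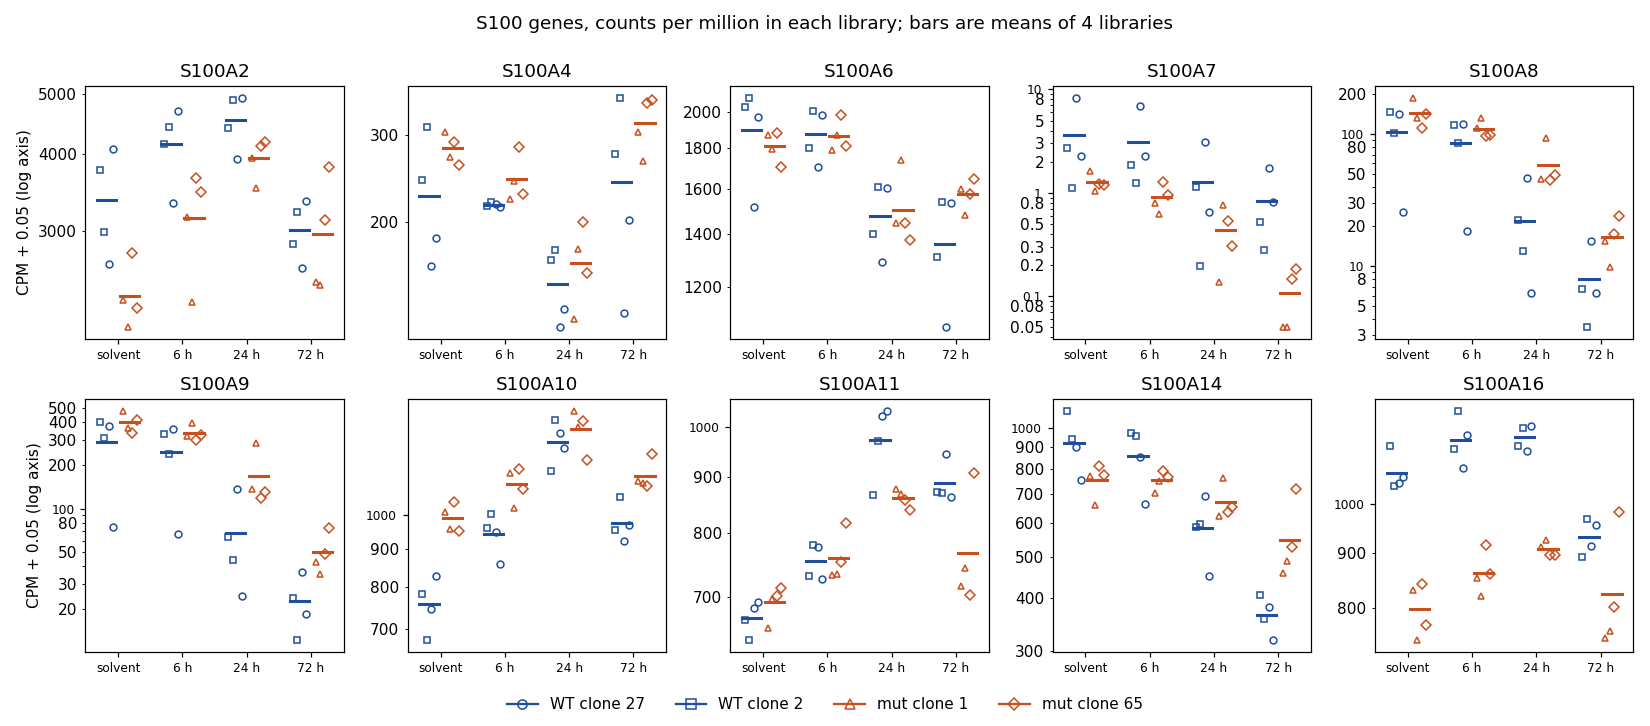
CPM of the 10 S100 genes (log axis, with 0.05 added so that values of 0 can be drawn) in each of the 32 libraries, by treatment and genotype. Symbols mark the clone and bars the mean of 4 libraries. S100A8 and S100A9 are lowest at 72 h in both genotypes, with WT series 27-2 already low in solvent, S100A10 is highest at 24 h, and S100A16 lies lower in mut than in WT libraries until 24 h.

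The first question was how the S100 genes changed with TGFβ1 in WT cells. Differences were tested with limma-voom over all 32 libraries, and a gene is called changed at a Benjamini-Hochberg adjusted p under 0.05. At 6 h, 1 of the 10 members rose, S100A10, beside 17.0% of all genes called. At 24 h, 9 of 10 were called, 3 up and 6 down, beside 52.1% of all genes. At 72 h, 8 of 10 were called, 2 up and 6 down, beside 52.2% of all genes. The median log2 fold change of the members was -0.46 at 24 h and -0.34 at 72 h, against -0.18 and -0.19 over all tested genes. With TMM factors, a scaling that balances the bulk of the genes, the all-gene medians moved to 0.00 and -0.03, and the members' counts became 4 up and 3 down at 24 h, and 2 up and 5 down at 72 h. The all-gene counts with TMM factors were 3499 up and 3450 down at 24 h, and 3189 up and 3459 down at 72 h. With the series as replicate block, 3 members were called at 6 h, since S100A2 (log2 fold change 0.31, adjusted p = 0.00884) and S100A11 passed as well. Over all genes the block called 1157 up and 2687 down at 6 h.

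The calprotectin genes had the steepest called falls of the set in WT cells. S100A8 had 147, 101, 143 and 25.5 CPM in the WT solvent libraries of series 2-1, 2-2, 27-1 and 27-2. At 24 h the same series had 22.1, 12.9, 46.6 and 6.24 CPM, and at 72 h they had 6.62, 3.41, 15.5 and 6.25 CPM. All 4 series fell, and no library at 72 h reached the lowest solvent library. On the log2 scale the fitted change was -2.31 ± 0.60 (SE) at 24 h (adjusted p = 0.00185) and -3.65 ± 0.77 at 72 h (adjusted p = 0.00025), a 12.6-fold lower level. Series 27-2 lay well below the other 3 series in solvent and had the smallest fall at 72 h, -2.03 on the log2 scale against -3.20 to -4.89 in the others. Without that series the value at 72 h was -4.18 (adjusted p = 1.5e-07).

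S100A9 followed S100A8 closely. It had 399, 308, 374 and 74.3 CPM in WT solvent, in the same order of series, and 23.8, 12.2, 36.2 and 18.5 CPM at 72 h. The 27-2 solvent library was again the low one, and the groups did not overlap. The log2 fold change was -2.11 ± 0.50 at 24 h (adjusted p = 0.000758) and -3.52 ± 0.58 at 72 h (adjusted p = 1e-05). The Pearson correlation of the log2 CPM of both genes was 0.996 over the 32 libraries, which share clones and treatments. The ratio of S100A9 to S100A8 CPM stayed between 2.34 and 3.96 in all 32 libraries, with means of 2.82 ± 0.192 in WT solvent and 3.12 ± 0.604 in WT cells at 72 h. After S100A9, the genes most like S100A8 among 9632 compared genes were RAB25 (r = 0.956), FXYD3 (0.943), TGM1 (0.942) and SQOR (0.941).

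**Figure D2:**
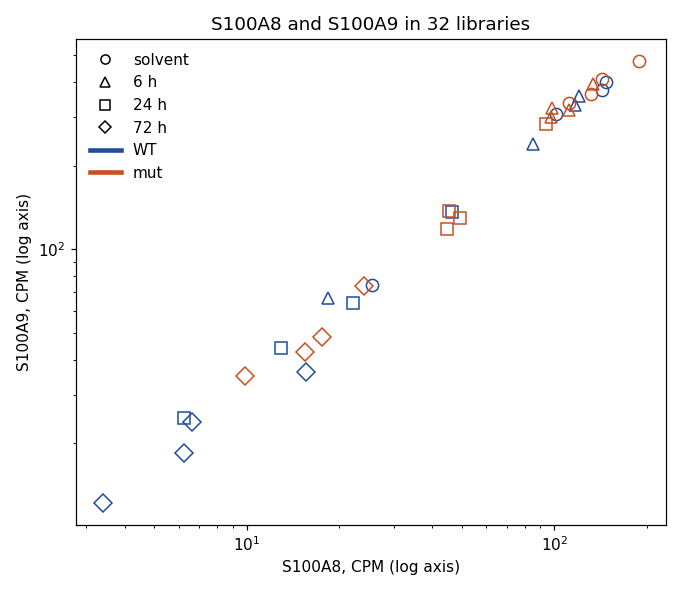
S100A8 CPM on the horizontal axis against S100A9 CPM on the vertical axis (both log axes), 1 point per library, with colour for the genotype and shape for the time. The 32 points lie along 1 line with S100A9 between 2.34 and 3.96 times S100A8, and the 72 h libraries lie at the low end.

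S100A14 fell more moderately but evenly. WT solvent libraries had 1097, 941, 901 and 754 CPM (series 2-1, 2-2, 27-1 and 27-2) and WT libraries at 72 h had 406, 358, 380.1 and 319 CPM. The highest library at 72 h was below the lowest solvent library. The log2 fold change was -0.67 ± 0.13 at 24 h (adjusted p = 0.00012) and -1.33 ± 0.13 at 72 h (adjusted p = 5e-09), a 2.51-fold lower level. Across the 32 libraries its log2 CPM correlated with that of S100A9 at r = 0.886 and with that of S100A8 at r = 0.871, as a description.

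S100A7 was a low transcript. It had 2.66, 1.06, 8.24 and 2.23 CPM in WT solvent and 0.466, 0.229, 1.69 and 0.769 CPM at 72 h, and series 27-1 was the highest in both groups. The groups overlapped, while each series fell (log2 fold change -2.15 ± 0.76, adjusted p = 0.0183). Without WT solvent 27-1 it was -1.57 (adjusted p = 0.0755), and without WT 72 h 2-2 it was -1.70 (adjusted p = 0.0668). S100A7A, a near-identical copy, had at most 0.252 CPM in WT solvent, and reads of these 2 genes may have been split between them, so the S100A7 values are uncertain. The 5 genes most like S100A7 over the 32 libraries of both genotypes were HLA-B (r = 0.855), MYO5B (0.824), TLE4 (0.809), DHRS1 (0.800) and MINDY1 (0.796). These values include the mut 72 h libraries, where S100A7 had 0 to 6 counts, at or near the floor.

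S100A6 and S100A4 had different time courses. S100A6 had 2030.4, 2086, 1517 and 1970.4 CPM in WT solvent and 1309, 1540.2, 1068 and 1535 CPM at 72 h (log2 fold change -0.49 ± 0.10, adjusted p = 0.00021). All 4 series were lower at 72 h, but the lowest solvent library, 27-1, lay within the range at 72 h. S100A4 had 243, 310.2, 164 and 186 CPM in WT solvent, 168, 176, 123 and 134 CPM at 24 h, and 274, 355, 132 and 202 CPM at 72 h. It was lower at 24 h (-0.56 ± 0.20, adjusted p = 0.021), and at 72 h the difference from solvent was 0.04 ± 0.20 (95% interval -0.37 to 0.45). At 24 h the values with TMM factors were -0.38 for S100A4 (adjusted p = 0.125) and -0.18 for S100A6 (adjusted p = 0.17), and neither was called. The call of S100A4 was also lost without WT solvent 2-1 (-0.51, adjusted p = 0.0591) or 2-2 (-0.39, adjusted p = 0.119), or WT 24 h 27-1 (-0.47, adjusted p = 0.0755) or 27-2 (-0.51, adjusted p = 0.0574).

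The annexin partners S100A10 and S100A11 rose. S100A10 had 781, 677, 747 and 826 CPM in WT solvent and 1149.6, 1349.6, 1294 and 1235 CPM at 24 h, so that the groups did not overlap. Its log2 fold change was 0.32 ± 0.06 at 6 h (adjusted p = 0.000951), 0.73 ± 0.06 at 24 h (adjusted p = 5e-10) and 0.37 ± 0.06 at 72 h (adjusted p = 2.5e-05). S100A11 had 666, 639, 683 and 692 CPM in WT solvent and 866, 971, 1023 and 1034 CPM at 24 h. Its log2 fold change was 0.54 ± 0.06 at 24 h (adjusted p = 5.9e-08) and 0.41 ± 0.06 at 72 h (adjusted p = 5e-06), with no overlap at either time. With TMM factors the rises at 24 h were 0.91 for S100A10 and 0.71 for S100A11.

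S100A2, the most abundant member, had 3768, 2988, 2656 and 4079 CPM in WT solvent and 4404, 4879.7, 3917 and 4926 CPM at 24 h. All 4 series were higher at 24 h (log2 fold change 0.44 ± 0.15, adjusted p = 0.014), the groups overlapped through the high 27-2 solvent library, and at 72 h the difference was -0.15 ± 0.15 (adjusted p = 0.413). Without WT solvent 27-1 the value at 24 h was 0.33 (adjusted p = 0.0741). S100A16 was lower at 72 h by a small amount, with 892, 969, 913 and 957 CPM against 1131, 1038, 1046 and 1058 CPM in solvent (-0.20 ± 0.06, adjusted p = 0.0093). With TMM factors this difference was -0.03 (adjusted p = 0.718).

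The second question was whether mut clones showed the same changes. At 6 h no member was called, beside 7.0% of all genes, while 3 members had an unadjusted p under 0.05. By edgeR the count was 0 and by DESeq2 it was 2, and with the series as replicate block it was 1, S100A2 (0.40, adjusted p = 0.00262). Over all genes the block called 731 higher and 1722 lower at 6 h. At 24 h, 8 of 10 members were called, 4 higher and 4 lower, beside 23.8% of all genes. With TMM factors these became 4 higher and 1 lower, beside 1376 higher and 1195 lower over all genes. At 72 h, 5 of 10 were called, 1 higher and 4 lower, beside 24.1% of all genes. With the series block 8 were called, 3 higher and 5 lower, beside 1635 higher and 3401 lower over all genes. Comparisons of one genotype at different times share their solvent libraries.

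S100A8 and S100A9 also fell in mut cells. S100A8 had 188, 131, 111 and 143 CPM in the mut solvent libraries of series 1-1, 1-2, 65-1 and 65-2, 45.5, 93.7, 44.8 and 49.2 CPM at 24 h, and 15.5, 9.85, 17.5 and 24.0 CPM at 72 h. The groups did not overlap at either time, and series 1-2 stayed high at 24 h. The log2 fold change at 72 h was -3.17 ± 0.59 (adjusted p = 0.00022, 95% interval -4.38 to -1.96). S100A9 had 477, 361, 336 and 411 CPM in mut solvent and 42.7, 34.9, 48.4 and 73.6 CPM at 72 h (-3.04 ± 0.50, adjusted p = 4.7e-05). At 24 h the values were -1.34 ± 0.49 for S100A8 (adjusted p = 0.0467) and -1.33 ± 0.47 for S100A9 (adjusted p = 0.0411). Each of these 24 h calls was lost in 7 of the 8 fits that leave out a library, all but that without mut 24 h 1-2, with adjusted p up to 0.119 for S100A8 and 0.101 for S100A9, and both were lost with TMM factors.

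S100A2 was 0.74 ± 0.15 higher on the log2 scale in mut cells at 24 h (adjusted p = 0.00055), with 2322, 2099.7, 2762 and 2252 CPM in solvent and 3939.8, 3518, 4114 and 4172 CPM at 24 h, and the groups did not overlap. S100A10 rose by 0.40 ± 0.07 at 24 h (adjusted p = 6.3e-05) and by 0.19 ± 0.07 at 72 h (adjusted p = 0.031), where the call was lost without mut solvent 1-2 (0.18) or 65-2 (0.17) or mut 72 h 65-2 (0.16). S100A11 rose by 0.32 ± 0.06 at 24 h (adjusted p = 0.00062), and at 72 h the value was 0.14 ± 0.06 (adjusted p = 0.102). S100A4 had 304, 271, 289.7 and 261 CPM in mut solvent and changes of -1.25, -0.62, -0.53 and -0.73 (log2) within the series at 24 h, a fitted difference of -0.78 ± 0.20 (adjusted p = 0.0055), and at 72 h it was 0.17 ± 0.20 from solvent. With the replications of a clone summed the 24 h value was -0.77 (adjusted p = 0.0601). S100A6 fell by 0.28 on the log2 scale at 24 h (adjusted p = 0.0462), and this call was lost in 7 of the 8 fits that leave out a library.

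S100A16 was 0.19 ± 0.06 higher in mut cells at 24 h (adjusted p = 0.027), a call lost without mut solvent 1-2 (0.16) or 65-2 (0.17) or mut 24 h 1-1 (0.18) or 1-2 (0.18). S100A14 in mut cells had 769.8, 660.4, 814 and 774 CPM in solvent and 457, 489, 526 and 719.7 CPM at 72 h, a difference of -0.48 ± 0.13 (adjusted p = 0.0093). The library 65-2 at 72 h lay inside the solvent range. S100A7 had 1.57, 0.988, 1.18 and 1.13 CPM in mut solvent, which are 44 to 74 counts, and 0, 0, 0.0949 and 0.134 CPM at 72 h, which are 0 to 6 counts. The call for S100A7 in mut cells at 72 h (adjusted p = 0.0288) thus rests on libraries at or near the floor, was lost without any 1 of the 4 libraries at 72 h, and its fitted fold is not given here.

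**Figure D3:**
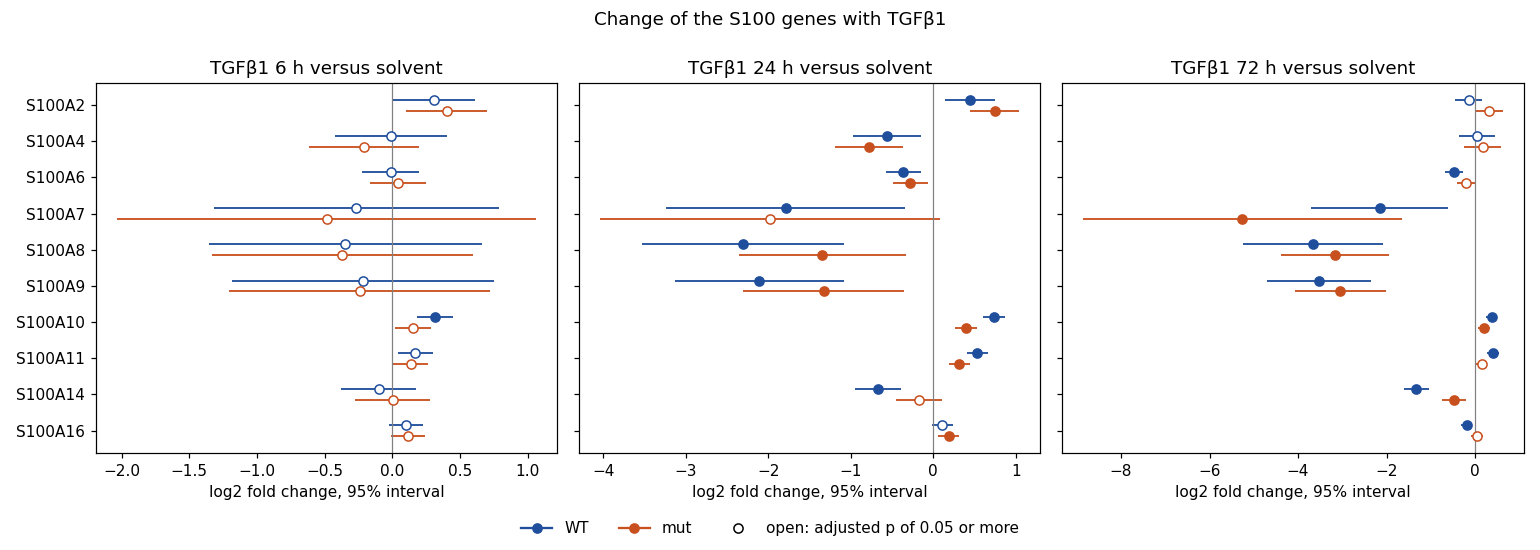
Log2 fold change (horizontal axis) of each S100 gene at 6, 24 and 72 h of TGFβ1 against solvent, with 95% intervals, for WT (blue) and mut (orange) cells. Filled points are called at an adjusted p under 0.05. S100A8 and S100A9 lie far below 0 at 72 h in both genotypes, and S100A14 lies at -1.33 in WT and -0.48 in mut cells. The horizontal scales differ between the panels.

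The third question was whether the changes differed between the genotypes, tested as the interaction term of the fit, which is positive where mut cells lay above WT cells in their change. At 6 h no member was called, beside 0.0740% of all genes, and none had an unadjusted p under 0.05. The count was 0 by edgeR and by DESeq2 too. At 24 h, 1 member was called, S100A10, beside 9.65% of all genes. At 72 h, 1 member was called, S100A14, beside 12.3% of all genes. These shares lie close to those of all genes.

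For S100A14 the WT series changed by -1.43, -1.39, -1.24 and -1.24 on the log2 scale at 72 h (series 2-1, 2-2, 27-1 and 27-2). The mut series changed by -0.75, -0.43, -0.63 and -0.11 (series 1-1, 1-2, 65-1 and 65-2). Every mut series fell less than every WT series. The series of a genotype are 2 replications of each of 2 clones, so that clone and genotype cannot be told apart by this. The interaction was 0.85 ± 0.19 (95% interval 0.46 to 1.24, adjusted p = 0.00366), and it kept an adjusted p under 0.05 in each of 16 fits that leave out a library and in each of the other fits. Being under 1 in size, it was not called where a minimum log2 fold change of 1 was asked for. At 24 h the interaction of S100A14 was 0.50 ± 0.19 (adjusted p = 0.097), and with the series as replicate block it was called (adjusted p = 0.00836).

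For S100A10 the WT series rose by 0.56, 1.00, 0.79 and 0.58 at 24 h and the mut series by 0.46, 0.46, 0.37 and 0.32, in the same orders of series and again without overlap. The interaction was -0.33 ± 0.09 (95% interval -0.52 to -0.14, adjusted p = 0.0226). It was not called with the replications of a clone summed (-0.33, adjusted p = 0.0832), nor without WT solvent 2-2 (-0.28, adjusted p = 0.0564), WT 24 h 2-2 (-0.30, adjusted p = 0.0581) or mut 24 h 65-2 (-0.29, adjusted p = 0.0525).

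S100A11 moved in the same direction, with changes of 0.39, 0.45, 0.47 and 0.32 in the WT series and 0.12, 0.09, 0.00 and 0.35 in the mut series at 72 h. Series 65-2 lay among the WT values. The interaction was -0.26 ± 0.09 (adjusted p = 0.0515), and it was called with TMM factors (-0.35, adjusted p = 0.0257), by edgeR, by DESeq2 and without mut 72 h 65-2 (-0.35, adjusted p = 0.00304). With the series as replicate block, 6 members were called at 72 h, beside 2547 positive and 941 negative calls over all genes. The 4 positive members were S100A2 (0.46, adjusted p = 0.00688), S100A6 (0.28, adjusted p = 0.0223), S100A14 and S100A16. The 2 negative members were S100A7 and S100A11 (-0.26, adjusted p = 0.016). The S100A7 call rests on mut 72 h libraries at or near the floor. With the block and TMM factors 2 positive and 2 negative calls were left, and S100A6 was at 0.19 (adjusted p = 0.147). At 24 h the block gave 3 calls, 1 of them positive, beside 2092 positive and 690 negative calls over all genes.

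For S100A8 and S100A9 the interactions were 0.96 ± 0.78 (95% interval -0.62 to 2.55) and 0.78 ± 0.69 (-0.63 to 2.19) at 24 h, and 0.48 ± 0.97 (-1.51 to 2.48) and 0.48 ± 0.77 (-1.09 to 2.05) at 72 h. No adjusted p was under 0.05, and intervals this wide do not show equal changes in both genotypes.

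**Figure D4:**
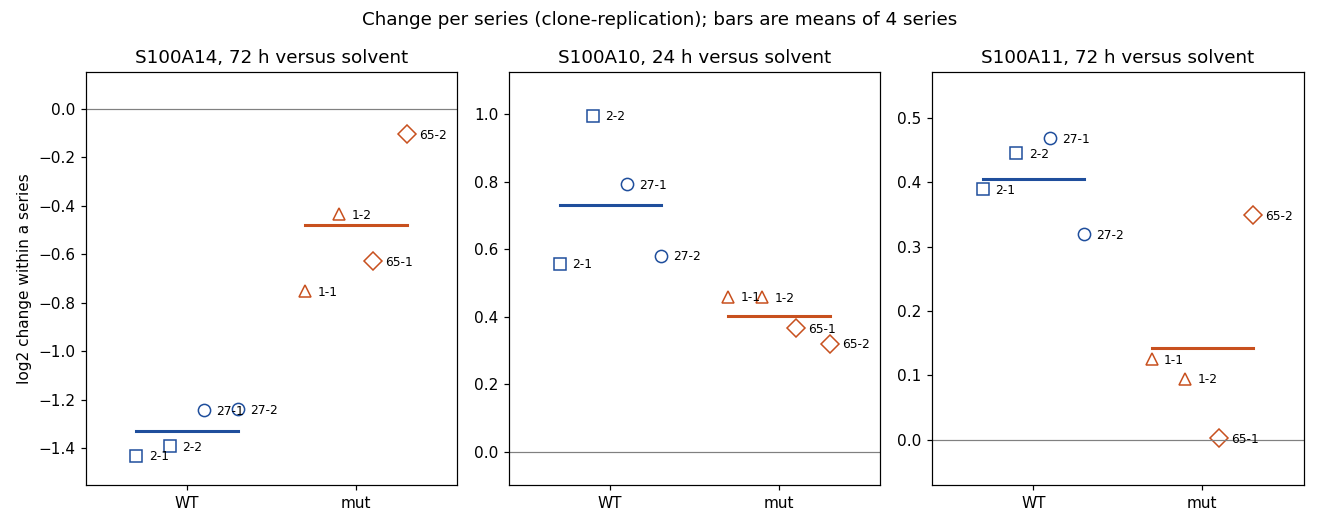
Log2 change from solvent within each series (vertical axis) for S100A14 at 72 h, S100A10 at 24 h and S100A11 at 72 h, in WT and mut clones. Each point is 1 series, labelled with clone and replication, and bars are means of 4 series. WT and mut series do not overlap for S100A14 and S100A10, and for S100A11 mut series 65-2 lies among the WT series.

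The last question was how the members differed between mut and WT cells at the same treatment. In solvent 3 of 10 were called (1 higher and 2 lower in mut), beside 12.7% of all genes. The counts were 3 at 6 h (1 higher, 2 lower) beside 21.4%, 4 at 24 h (2 higher, 2 lower) beside 36.9%, and 4 at 72 h (2 higher, 2 lower) beside 39.2% of all genes. The split at 72 h depended on the setting, with 1 higher and 2 lower with TMM factors, 1 higher and 3 lower by edgeR and by DESeq2, and 4 higher and 1 lower without series 27-2 or in a fit on the compared groups alone. The all-gene split moved too, from 3864 higher and 1965 lower in the main fit to 2776 higher and 2653 lower with TMM factors. Each genotype is represented by 2 clones, so that a difference of clones and a difference of genotype cannot be told apart by these counts alone.

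S100A16 was lower in mut cells in every state. In solvent it had 832, 747, 843 and 771 CPM in mut libraries, all below the 1038 to 1131 CPM of the WT libraries. The log2 difference was -0.42 ± 0.06 in solvent (adjusted p = 2.1e-05), -0.41 ± 0.06 at 6 h (adjusted p = 1.8e-05), -0.34 ± 0.06 at 24 h (adjusted p = 8.8e-05) and -0.18 ± 0.06 at 72 h (adjusted p = 0.018). The groups overlapped only at 72 h, through mut library 65-2 with 983 CPM, which lay above all 4 WT libraries. The call at 72 h was lost without WT 72 h 2-2 (-0.17) or mut 72 h 1-1 (-0.14) or 1-2 (-0.15). It was kept in 5 of 9 alternative fits that leave out no single library (-0.28 to -0.15, adjusted p up to 0.132).

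S100A10 was higher in mut solvent libraries, with 1010.2, 959.7, 1043 and 953 CPM against at most 826 CPM in WT solvent (log2 difference 0.39 ± 0.06, adjusted p = 0.0001). The difference was 0.23 ± 0.07 at 6 h (adjusted p = 0.013, and 0.18 with adjusted p = 0.0625 without WT 6 h 27-2), 0.06 ± 0.07 at 24 h (95% interval -0.07 to 0.19) and 0.21 ± 0.07 at 72 h (adjusted p = 0.0101), where it was 0.13 with TMM factors (adjusted p = 0.171). S100A2 was lower in mut solvent (log2 difference -0.50 ± 0.15, adjusted p = 0.0217), with 1 mut library inside the WT range, and the difference was -0.41 ± 0.15 at 6 h (adjusted p = 0.0482). Without series 27-2 the solvent difference of S100A2 was -0.40 (adjusted p = 0.0941). It also lost its call without WT solvent 2-1 (-0.44), mut solvent 1-2 (-0.45) or mut solvent 65-2 (-0.48), and the 6 h call was kept in 3 of 8 fits that leave out a library.

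S100A8 and S100A9 were higher in mut than in WT cells at 24 h, by 1.67 ± 0.61 (adjusted p = 0.0329) and 1.48 ± 0.50 (adjusted p = 0.0217) on the log2 scale. S100A8 then had 44.8 to 93.7 CPM in mut and 6.24 to 46.6 CPM in WT libraries, which overlapped. Both calls depended on single libraries. Without series 1-2 the differences were 1.41 (adjusted p = 0.12) and 1.19 (adjusted p = 0.107), and both calls were also lost without the WT 24 h libraries 27-2 (1.17 and 1.08) or 2-2 (1.54 and 1.37), whereas without all libraries of series 27-2 they were 1.17 (adjusted p = 0.0106) and 1.08 (adjusted p = 0.0088). At 72 h the differences were 1.18 ± 0.85 for S100A8 and 1.18 ± 0.60 for S100A9, with adjusted p of 0.281 and 0.125, and without series 27-2 that of S100A9 was 1.11 (adjusted p = 0.0251). In the 9 alternative fits that leave out no single library, S100A9 stayed uncalled in 6 (smallest adjusted p = 0.0136). S100A8 stayed uncalled in 8 of these 9 fits (smallest adjusted p = 0.0407).

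S100A14 was higher in mut cells at 72 h, where all 4 mut libraries (457 to 719.7 CPM) exceeded all WT libraries (319 to 406 CPM), by 0.57 ± 0.13 (adjusted p = 0.0012). In solvent its difference was -0.28 ± 0.13 (adjusted p = 0.18). S100A11 was lower in mut cells at 24 h (-0.17 ± 0.06, adjusted p = 0.033) and at 72 h (-0.22 ± 0.06, adjusted p = 0.0076, and 0.0768 in a fit on the compared groups alone). Its call at 24 h was kept in 2 of the 8 fits that leave out a library. S100A4 and S100A6 had differences of 0.48 ± 0.20 and 0.22 ± 0.10 at 72 h, neither called (adjusted p = 0.056 and 0.081).

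Other genes of the pathway were taken from fixed lists. Of 11 further S100 genes, 7 were in the table and 6 were tested. In WT cells at 72 h, 1 of these rose and 4 fell, beside 52.2% of all genes called, with a median log2 fold change of -0.83. With TMM factors 1 rose and 2 fell. S100P, a secreted RAGE ligand, fell by 2.39 on the log2 scale (from 2.91 to 10.3 CPM in solvent to 0.324 to 2.57 CPM, adjusted p = 0.0041). S100A1 (-0.82 ± 0.30) and S100A5 (-0.85 ± 0.33) were low at about 1 CPM, and S100A12, the neighbour of S100A8 and S100A9, had at most 0.336 CPM. S100A1 overlaps S100A13 on the opposite strand, and the kit does not mark strand, so their reads cannot be fully told apart. S100A5 had an interaction of 1.43 ± 0.45 at 72 h (adjusted p = 0.037), and with TMM factors 0 of the 6 genes had a called interaction.

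Of 16 binding partners and receptors, 4 rose and 6 fell in WT cells at 72 h, beside 52.2% of all genes called, and the median was -0.11. With TMM factors the balance turned to 5 higher and 2 lower, with a median of 0.05. ANXA6, an annexin that binds membranes in the presence of calcium, rose by 1.93 ± 0.40 (adjusted p = 0.00019). MYH9, the heavy chain of non-muscle myosin bound by S100A4, rose by 0.55 ± 0.09 (adjusted p = 4.3e-06) with an interaction of -0.40 ± 0.12 (adjusted p = 0.029). AGER, the receptor RAGE, was lower in both genotypes at 72 h (-0.50 in WT and -0.49 in mut, adjusted p = 0.0155 and 0.0144).

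Of 11 epithelial defence genes, 8 were tested, and 2 rose and 4 fell in WT cells at 72 h, beside 52.2% of all genes called (2 and 3 with TMM factors). The protease inhibitor PI3 (-2.41 ± 0.72, adjusted p = 0.0063) and the serum amyloids SAA1 (-1.41 ± 0.36) and SAA2 (-1.32 ± 0.56) fell, each with overlapping groups. The cytokine gene IL1B rose by 1.28 ± 0.23 (adjusted p = 3.1e-05), with an interaction of -1.21 ± 0.39 (adjusted p = 0.037). SAA1 and SAA2 are close copies whose reads may be split. Over the 8 tested genes the median log2 fold change at 72 h was -0.999 in WT and -2.22 in mut cells. In mut cells 0 rose and 4 fell, beside 24.1% of all genes.

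Of the 33 table genes without an S100 name that lie between S100A10 and S100A1, the epidermal differentiation complex, 21 were tested. In WT cells at 72 h 3 rose and 8 fell (median -0.53), beside 52.2% of all genes called, and in mut cells 0 rose and 3 fell (median -0.69), beside 24.1% of all genes. The WT share is about that of all genes. With the series as replicate block the mut counts were 1 higher and 6 lower, beside 1635 higher and 3401 lower over all genes. The small proline-rich genes SPRR3 (-3.20 ± 0.46, adjusted p = 1.6e-06) and SPRR1B (-3.06 ± 0.57, adjusted p = 5.8e-05) fell in WT cells. SPRR2G had 0 CPM in all WT solvent libraries and 0.607 to 8.09 CPM at 72 h, and LCE1B had 0.602 to 1.91 CPM in WT solvent and 0 to 0.263 CPM at 72 h, with an interaction of 3.40 ± 0.91 (adjusted p = 0.0142) that rests on libraries near the floor. Rises and falls thus stood side by side in the same stretch of chromosome as the S100 genes. Members of the SPRR and LCE families share sequence, so their counts are uncertain.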

How the data were processed

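RNA was measured by TruSeq RNA-seq (a kit that keeps no strand) in 32 libraries, and groups came from the labels. The authors trimmed reads with Trimmomatic, then aligned to GRCh38 and counted with STAR. The deposited values are raw counts per gene, and the counting strand and tool versions are not given in the sources used here. No column was left unused (0). CPM and tests were computed here. Following the study, counts were scaled by library size and fitted with voom of limma 3.58.1 (R 4.3.3) on all 32 libraries, after a low-count filter (edgeR 4.0.16, filterByExpr, with 10 as minimum count and 15 as minimum total). P-values were adjusted over 14865 genes. They measure the spread between these libraries, 2 replications of each of 2 clones per genotype. Deviations from group means correlated at 0.303 on average between libraries of the same series (0.0283 to 0.673, 48 pairs). Between libraries of the same clone but the other replication the average was 0.0184 (-0.397 to 0.243, 48 pairs). The main fit has no term for the series, and the series block is given as an alternative. Library pairs within a group all differed beyond sampling noise, so none was taken as a duplicate. Totals were 39702412 to 54651906 counts, intervals and floors cover counting or replicate error only, and reads carry no molecular identifiers. Named were all 10 members, at most 4 genes per list called in WT cells at 72 h or in an interaction (by size at 72 h in WT cells), the 5 genes most like 2 members, marker genes and JUNB; 1 gene that this rule names is not reported here. The members and lists were chosen with earlier results of these data known. Alternatives were TMM factors, other count filters, edgeR, DESeq2 1.42.0, the series as block, fits on the compared groups, clone sums, a minimum log2 fold change of 1, and leaving out series or libraries. Sequences are from RefSeq, where all 10 members matched by symbol; 1 window per gene was searched, and 4 of the 10 start at the outermost GENCODE start.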

Additional observations from a re-analysis of the deposited data

Results flagged for a closer look

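In 4 of the 80 groups of 4 libraries (10 genes in 8 groups), 1 library stood apart from the other 3 by more than Dixon's 95% limit, and chance gives about 1 in 20 such groups. S100A8 had 93.7 CPM in the mut 24 h library of series 1-2, above the other 3 libraries by 0.873 of the group's range. S100A9 had 74.3 CPM in the WT solvent library of series 27-2, below the others by 0.845 of the range. S100A10 had 1210.5 CPM in the mut 72 h library of series 65-2, above the others by 0.853 of the range. S100A11 had 945 CPM in the WT 72 h library of series 27-1, above the others by 0.885 of the range.

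In 2 cases the change with TGFβ1 differed between the genotypes by the test of the difference. For S100A10 at 24 h it was -0.33 on the log2 scale (adjusted p = 0.0226, limma-voom, a smaller rise in mut cells, in 4 of 4 mut series below all WT series), and for S100A14 at 72 h it was 0.85 (adjusted p = 0.00366, a smaller fall in mut cells, likewise without overlap of the series). No cause was tested for these values.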

How the results depend on the processing

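Of 47 called values of the 10 genes over 13 comparisons, 24 kept direction and an adjusted p under 0.05 in every fit and 26 in every fit that leaves out no single library, not counting the minimum log2 fold change of 1. The 52 uncalled values under 0.25 in size were not compared singly, and 23 of them changed sign in some setting. With a minimum log2 fold change of 1, the members called in WT cells were 0 at 6 h, 3 at 24 h and 4 at 72 h, in mut cells 2 at 24 h and 3 at 72 h, between genotypes 2 at 24 h and 0 at each other time, and for the interaction 0 at 24 h and 0 at 72 h. All-gene counts at this minimum are not given here, so these counts describe the members only. TMM factors and edgeR each gave 2 in WT cells at 6 h, 5 in mut cells at 24 h and 2 for the interaction at 72 h. Over all genes, TMM factors gave 1042 higher and 919 lower in WT cells at 6 h, and 1376 and 1195 in mut cells at 24 h. For the interaction at 72 h they gave 674 positive and 617 negative calls. DESeq2 gave 2 in WT cells at 6 h, 2 in mut cells at 6 h, 5 in mut cells at 24 h and 2 for the interaction at 24 h and at 72 h. With the series as replicate block the counts were 3 in WT cells at 6 h, 1 in mut cells at 6 h, 8 in mut cells at 72 h, and 3 and 6 for the interaction at 24 and 72 h, and with the block and TMM factors they were 3 and 2 at 6 h in WT and mut cells and 3 and 4 for the interaction at 24 and 72 h. The block also brought S100A7 in mut cells at 24 h past the threshold (-1.77, adjusted p = 0.0021). It could be fitted for changes with TGFβ1 and interactions, not between genotypes, since no series holds both. The all-gene counts under the block without TMM factors stand beside the members' counts in the sections above. For the remaining settings of this section, other than TMM factors, all-gene counts are not given, so those counts describe the members only. Without series 1-2 the counts were 1 in mut cells at 6 h, 3 in mut cells at 72 h and 1 between genotypes at 24 h, and without series 27-2 the count was 1 between genotypes at 6 h, as in the fit on the compared groups alone. Clone sums gave 3 in mut cells at 72 h and 0 for the interaction at 24 h, and a mean count of at least 50 gave 2 for the interaction at 72 h.

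Leaving out 1 library at a time gave 7 to 9 members in WT cells at 24 h and 7 to 8 at 72 h, 0 to 1 in mut cells at 6 h, 4 to 7 at 24 h and 3 to 5 at 72 h, 2 to 3 between genotypes in solvent, 1 to 3 (6 h), 1 to 4 (24 h) and 3 to 6 (72 h) under TGFβ1, and 0 to 2 and 1 to 2 for the interaction at 24 and 72 h. Of the larger uncalled values, the sign turned in 4 fits: S100A7 in WT cells at 6 h was 0.32 without WT solvent 27-1 and 0.11 without WT 6 h 2-2 (range -0.76 to 0.32), S100A8 in WT cells at 6 h was 0.29 without WT 6 h 27-2 (range -0.92 to 0.29), and JUNB between genotypes in solvent was -0.14 without mut solvent 65-2 (range -0.14 to 0.30). The cause of these differences was not tested. Depth limits S100A7, S100A12 and the LCE and SPRR genes, which lie near the floor of 3 counts in some groups.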

Other observations

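Across the 32 libraries, which share clones and treatments, the log2 CPM of S100A2 and S100A16 correlated at r = 0.783 and those of S100A10 and S100A11 at r = 0.659, while S100A6 and S100A11 correlated at r = -0.654. These are descriptions and were not tested.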
